A study of Mus musculus with 4 samples.

Results

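The GADD45 family and the p53 pathway genes around it were followed in RNA-seq of mouse embryonic fibroblasts (MEF) that carry or lack *Hmga2* and were treated with or without TGFB1. The group held 10 of the 25731 genes with a symbol in the table: *Gadd45a*, *Gadd45b*, *Gadd45g*, *Trp53*, *Mdm2*, *Cdkn1a*, *Cdkn2a*, *Cdkn2b*, *Ccng1* and *Sesn2*. They were chosen by name for their place in the pathway, with earlier results of these data known, and 21 of 63759 annotated transcripts belong to them. Each gene is given by its transcript with the longest gene body unless stated otherwise, and positions are on mm10. All 10 genes reached at least 1 RPKM in each library, so none was lost to a filter on low values. RPKM are read numbers corrected for transcript length and library size.

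The transcription factor p53, encoded by *Trp53*, is stabilised by DNA damage and other stress and activates genes that stop the cell cycle, repair DNA or start apoptosis. Its target MDM2 is the ubiquitin ligase that removes p53, which closes a feedback loop, and p19ARF, 1 of the proteins made from *Cdkn2a*, blocks MDM2. GADD45A, GADD45B and GADD45G are small stress-induced proteins without enzyme activity that bind CDK1, PCNA and the kinase MAP3K4 and take part in active DNA demethylation. TGFB1 is known to arrest many cell types through *Cdkn2b* and *Cdkn1a*, which encode inhibitors of cyclin-dependent kinases (CDK).

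The study compared wild-type (*Hmga2*+/+) with knockout (*Hmga2*-/-) fibroblasts, both of C57BL/6 mice, to learn how the chromatin protein HMGA2 takes part in transcription and TGFB1 signaling. Cells came from the trunk of embryos at day 15.5, were immortalised with SV40 and were starved overnight in low serum. They were then treated for 24 h with water (Ctrl) or with 10 ng/ml of human recombinant TGFB1. The table holds 1 column for each of the 4 combinations, called a library here. The study's methods speak of duplicates of 1 experiment, so a column may pool them. No difference below therefore has a replicate check, and no test between conditions was possible.

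SV40 large T antigen binds and inhibits p53 and the RB proteins. Cells of all 4 libraries were immortalised with SV40, so neither genotype is a model of a p53 pathway free of that virus protein. Primary cells of each genotype were immortalised after isolation, so in all comparisons below genotype cannot be told apart from cell population. The level of T antigen in each population was not measured here. The knockout was checked first: *Hmga2* had 15.1 RPKM without and 41.7 RPKM with TGFB1 in wild-type MEF. No read fell on it in either knockout library, so that against a floor of 3 reads its level in Ctrl was at least 1186-fold lower. Each library held between 56143000 and 57297000 mapped reads, derived from the RPKM. Fibroblast markers summed to between 2018 and 2428 RPKM, with 10 of 11 at 1 RPKM or more in each library. *Vim* alone had between 958 and 1497 RPKM, so the sum says little about the other markers. With TGFB1, 2 of the 11 rose and 5 fell at least 1.5-fold in *Hmga2*+/+ MEF, and 3 rose and 5 fell in *Hmga2*-/- MEF. Of the genes that reached 1 RPKM in any library, 12.1% rose and 17.6% fell in *Hmga2*+/+ MEF, and 13.7% and 15.9% in *Hmga2*-/- MEF. The 4 epithelial markers summed to at most 1.04 RPKM and the 4 skeletal muscle markers to at most 0.053 RPKM, with *Myod1* and *Myog* at 0 in each library. The endothelial sum was 1.14, 4.53, 1.47 and 7.46 RPKM in the order *Hmga2*+/+ Ctrl, *Hmga2*+/+ TGFB1, *Hmga2*-/- Ctrl and *Hmga2*-/- TGFB1. Nearly all of it was *Kdr*, while *Cdh5* and *Pecam1* stayed at or below 0.048 RPKM. The 3 cartilage markers summed to 3.40, 6.02, 2.08 and 6.21 RPKM and the neural markers to 19.0, 11.6, 23.6 and 13.6 RPKM in the same order, the latter mostly *Map2*. The immune markers summed to at most 1.63 RPKM, mostly *Cd68*. The part of other cell types in the results below was not tested, and in bulk RNA fewer cells of a type and less RNA per cell cannot be told apart.

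The sequence before the start sites was read from RefSeq promoter windows (GRCm38.p6, which is mm10), found for all 10 genes in 12 windows. A window has 300 bases, of which 50 lie after the start, and shares of windows refer to all 300. The 250 bases before the start are shown, 5′ to 3′ on the strand of the gene, for 4 genes. *Cdkn1a* and *Ccng1* are shown because their windows were the 2 of 12 that held a p53 site, here 2 copies of the 10-base p53 element with at most 1 base between them and at most 1 mismatch in all. These limits were chosen after the sequences were seen. The site is in capitals. With the same limits 0.110% of all 32851 mouse windows of 300 bases held one, and since the limits were set on these windows nothing is read from that contrast. *Gadd45a* and *Cdkn2b* are shown because *Gadd45a* changed most with TGFB1 and *Cdkn2b* is a textbook TGFB1 target, with the SMAD box CAGAC in capitals on either strand (GTCTG on the other). The sequences of *Cdkn1a* and *Ccng1* also hold this box, 1 and 3 times, but it is not marked there.
Cdkn1a upstream start, chr17:29090729-29090978, plus strand: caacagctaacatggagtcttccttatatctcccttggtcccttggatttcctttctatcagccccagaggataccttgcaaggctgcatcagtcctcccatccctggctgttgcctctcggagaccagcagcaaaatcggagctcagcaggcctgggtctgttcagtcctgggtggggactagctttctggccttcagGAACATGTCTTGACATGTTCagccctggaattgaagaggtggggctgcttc
Ccng1, chr11:40755287-40755536, minus strand: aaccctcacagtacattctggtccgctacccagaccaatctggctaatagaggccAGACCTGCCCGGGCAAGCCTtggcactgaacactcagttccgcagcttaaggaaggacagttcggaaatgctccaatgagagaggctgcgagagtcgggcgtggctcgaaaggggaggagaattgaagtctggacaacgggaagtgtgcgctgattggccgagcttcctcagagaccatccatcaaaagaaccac
Gadd45a, chr6:67037408-67037657, minus strand: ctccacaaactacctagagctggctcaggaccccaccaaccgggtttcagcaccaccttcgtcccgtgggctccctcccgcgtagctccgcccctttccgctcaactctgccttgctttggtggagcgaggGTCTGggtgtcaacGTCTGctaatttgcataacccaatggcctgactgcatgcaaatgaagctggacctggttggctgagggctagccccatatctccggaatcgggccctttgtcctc
Cdkn2b, chr4:89311033-89311282, minus strand: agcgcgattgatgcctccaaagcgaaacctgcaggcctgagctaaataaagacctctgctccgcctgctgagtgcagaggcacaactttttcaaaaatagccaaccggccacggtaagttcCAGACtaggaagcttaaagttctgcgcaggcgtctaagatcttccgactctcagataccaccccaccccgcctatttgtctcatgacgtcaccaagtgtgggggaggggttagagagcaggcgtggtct

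In the *Cdkn1a* window the first copy matched the p53 element at each position and the second had 1 mismatch, and the site lay 51 to 32 bases before the upstream start. In *Ccng1* the first copy had the 1 mismatch, and the site lay 195 to 176 bases before the start. Among 34 windows of 26 further p53 target genes, 1 window held such a site, that of *Gtse1*. The CAGAC box was found in 7 of the 12 windows and in 49.6% of all windows, so a box in a window sets these genes little apart. Of the 7, that of *Gadd45b* held no box within the 250 bases before the start. The SMAD palindrome GTCTAGAC was found in none of the 12 windows and in 0.213% of all windows. Known p53 elements of *Mdm2* and *Gadd45a* lie in introns, outside these windows. A match is a run of letters and does not show that a factor was bound in these cells.

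In untreated *Hmga2*+/+ MEF, *Cdkn2a* had the highest level of the 10 genes with 160 RPKM, followed by *Ccng1* with 38.1 RPKM and *Mdm2* with 32.0 RPKM. *Trp53* had 17.1 RPKM, *Cdkn2b* 14.4 RPKM and *Gadd45a* 12.3 RPKM. The lowest level was that of *Sesn2* with 2.97 RPKM. Neighbours in this order had exact Poisson intervals (95%) that did not overlap, except *Gadd45g* with *Cdkn1a* and *Cdkn1a* with *Gadd45b*. Under TGFB1, *Gadd45a* moved up to the second place in *Hmga2*+/+ MEF, while *Mdm2* and *Ccng1* took the places behind *Cdkn2a* in *Hmga2*-/- MEF, with intervals that overlapped each other. All such intervals cover counting error only.

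**Figure D1:**
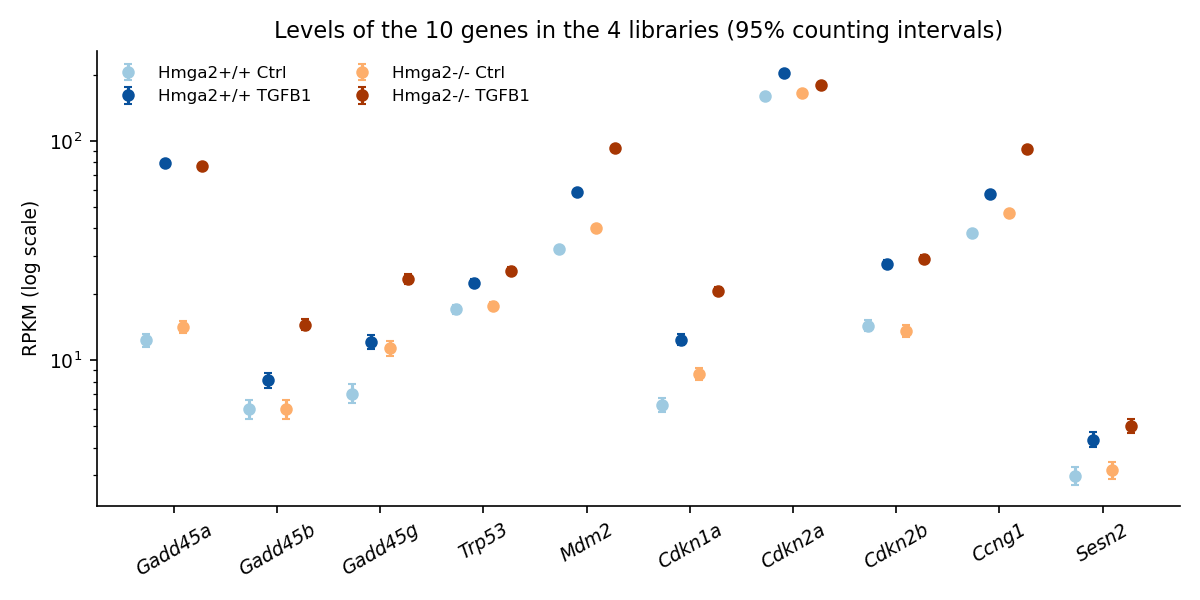
RPKM (log axis) of the 10 genes in the 4 libraries; points are single libraries and bars are 95% Poisson intervals of the reads, which cover counting error only. *Gadd45a* sits near 12.3 and 14.2 RPKM in the Ctrl libraries and near 79.2 and 76.9 RPKM in the TGFB1 libraries. All genes but *Gadd45a* and *Cdkn2a* are highest in the *Hmga2*-/- TGFB1 library, *Cdkn2b* and *Sesn2* with bars that overlap those of the *Hmga2*+/+ TGFB1 library.

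With TGFB1, 5 of the 10 genes rose at least 1.5-fold in *Hmga2*+/+ MEF, against 12.1% of the 11310 genes that reached 1 RPKM in any of the 4 libraries (all genes hereafter). In *Hmga2*-/- MEF 8 of the 10 rose, against 13.7% of those genes. None of the 10 fell in either genotype, whereas 17.6% of all genes did in *Hmga2*+/+ MEF and 15.9% in *Hmga2*-/- MEF. The median change of the 10 genes was 0.68 on the log2 scale in *Hmga2*+/+ MEF and 1.07 in *Hmga2*-/- MEF, beside -0.05 and 0.01 for all genes. All 10 genes lay above 0 in both genotypes, against 45.8% of all genes in *Hmga2*+/+ MEF and 50.6% in *Hmga2*-/- MEF.

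*Gadd45a* (chr6:67035096-67037407, minus strand), the family member best known as a p53 target, had 12.3 RPKM without and 79.2 RPKM with TGFB1 in *Hmga2*+/+ MEF, from 842 and 5524 reads. In *Hmga2*-/- MEF it had 14.2 and 76.9 RPKM, from 977 and 5326 reads. It rose 6.43-fold in *Hmga2*+/+ MEF, a log2 change of 2.68 (exact counting interval 2.58 to 2.79) that was above 99.1% of all genes, and 5.42-fold in *Hmga2*-/- MEF (2.44, 2.34 to 2.54). Both TGFB1 libraries stood far above both Ctrl libraries, and the genotypes differed little by comparison.

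*Gadd45b* (chr10:80930091-80932204, plus strand), a known early target of TGFB1 and NF-κB signaling, had 5.98 RPKM in the Ctrl library of either genotype. With TGFB1 it had 8.10 RPKM in *Hmga2*+/+ MEF and 14.5 RPKM in *Hmga2*-/- MEF. It rose 2.43-fold in *Hmga2*-/- MEF (log2 1.28, 1.12 to 1.45), while its ratio of 1.35 in *Hmga2*+/+ MEF did not reach 1.5-fold. Both TGFB1 libraries lay above both Ctrl libraries with Poisson intervals that did not overlap, and the *Hmga2*-/- TGFB1 library was highest. *Gadd45g* (chr13:51846675-51848474, plus strand), which also inhibits CDK1 and activates MAP3K4, had 7.06, 12.2, 11.3 and 23.6 RPKM in the order *Hmga2*+/+ Ctrl, *Hmga2*+/+ TGFB1, *Hmga2*-/- Ctrl and *Hmga2*-/- TGFB1. It rose 1.72-fold in *Hmga2*+/+ MEF and 2.08-fold in *Hmga2*-/- MEF, and its untreated *Hmga2*-/- level was close to its treated *Hmga2*+/+ level.

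Summed over the family, the level went from 25.4 to 99.5 RPKM in *Hmga2*+/+ MEF and from 31.5 to 115 RPKM in *Hmga2*-/- MEF. *Gadd45a* made up 48.6% of that sum in the *Hmga2*+/+ Ctrl library and 79.6% with TGFB1, and 45.0% and 66.9% in *Hmga2*-/- MEF. The share of *Gadd45g* was 27.8% and 12.2% in *Hmga2*+/+ MEF and 36.0% and 20.5% in *Hmga2*-/- MEF. The members of the family therefore did not change in equal measure.

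*Trp53* itself (chr11:69580359-69591873, plus strand) did not reach 1.5-fold in either genotype. It had 17.1 RPKM without and 22.5 RPKM with TGFB1 in *Hmga2*+/+ MEF (log2 0.40, 0.31 to 0.49), and 17.7 and 25.6 RPKM in *Hmga2*-/- MEF (0.53, 0.45 to 0.62). Its 5 annotated transcripts, which share most exons, gave ratios between 1.28 and 1.36 in *Hmga2*+/+ MEF and between 1.36 and 1.45 in *Hmga2*-/- MEF. Since p53 is controlled mainly by the stability of its protein, the RNA level does not give its activity.

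*Mdm2* (chr10:117688875-117710758, minus strand) had 32.0 and 58.3 RPKM without and with TGFB1 in *Hmga2*+/+ MEF, and 40.3 and 92.8 RPKM in *Hmga2*-/- MEF. It rose 1.82-fold in *Hmga2*+/+ MEF (log2 0.86, 0.82 to 0.91) and 2.31-fold in *Hmga2*-/- MEF (1.21, 1.16 to 1.25), and its 4 transcripts gave nearly the same ratios. Set against *Trp53* in the same library, the RPKM level of *Mdm2* was 1.88 and 2.59 times as high in *Hmga2*+/+ MEF without and with TGFB1, and 2.27 and 3.62 times as high in *Hmga2*-/- MEF. The log2 change of the ligase gene was thus larger than that of the gene for its substrate in both genotypes, with counting intervals that did not overlap.

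*Cdkn1a* (chr17:29090979-29100722, plus strand), which encodes the CDK inhibitor p21, had 6.28 and 12.4 RPKM in *Hmga2*+/+ MEF without and with TGFB1, and 8.63 and 20.7 RPKM in *Hmga2*-/- MEF. It rose 1.98-fold (log2 0.99, 0.85 to 1.12) and 2.39-fold (1.26, 1.15 to 1.37). The gene has 3 annotated transcripts with different starts, and their ratios lay between 1.98 and 2.06 in *Hmga2*+/+ MEF and between 2.39 and 2.44 in *Hmga2*-/- MEF. The p53 site shown above lies at the most upstream start, and the next start is 2790 bases downstream of it. Since the transcripts from these 2 starts share their other exons, the difference of their reads is the difference between their first exons. The downstream first exon had 27 more reads than the upstream one in the *Hmga2*+/+ Ctrl library and 114 more with TGFB1, and 62 and 179 more in the *Hmga2*-/- libraries. These differences are lower limits for the reads on the downstream first exon. The reads on the upstream first exon cannot be read from the table.

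*Ccng1* (chr11:40748552-40755286, minus strand), which encodes the p53-induced cyclin G1, had 38.1 and 57.1 RPKM in *Hmga2*+/+ MEF and 46.7 and 92.0 RPKM in *Hmga2*-/- MEF. It rose 1.97-fold in *Hmga2*-/- MEF (log2 0.98, 0.94 to 1.01). In *Hmga2*+/+ MEF its ratio of 1.496 lay just under the threshold, and with libraries rescaled by their median ratio it passed. *Sesn2* (chr4:132492807-132510456, minus strand), a stress-induced inhibitor of mTORC1 signaling, had 2.97 and 4.34 RPKM in *Hmga2*+/+ MEF and 3.16 and 5.04 RPKM in *Hmga2*-/- MEF. It rose 1.60-fold in *Hmga2*-/- MEF (log2 0.67, 0.51 to 0.84), while its ratio in *Hmga2*+/+ MEF was 1.46. Both genes thus lay close to the threshold in *Hmga2*+/+ MEF.

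*Cdkn2a* (chr4:89274473-89294619) and *Cdkn2b* (chr4:89306289-89311032) lie 11670 bases apart on the minus strand and were unlike in their response. *Cdkn2b*, which encodes the CDK4 and CDK6 inhibitor p15INK4B, had 14.4 RPKM without and 27.5 RPKM with TGFB1 in *Hmga2*+/+ MEF, and 13.6 and 29.0 RPKM in *Hmga2*-/- MEF. It rose 1.92-fold (log2 0.94, 0.83 to 1.04) and 2.12-fold (1.09, 0.98 to 1.19). *Cdkn2a* had 160 and 204 RPKM in *Hmga2*+/+ MEF and 165 and 179 RPKM in *Hmga2*-/- MEF, and neither ratio, 1.27 and 1.08, reached 1.5-fold. The level of *Cdkn2a* was 11.1-fold that of *Cdkn2b* in the *Hmga2*+/+ Ctrl library and 7.39-fold with TGFB1, and 12.1-fold and 6.18-fold in *Hmga2*-/- MEF.

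*Cdkn2a* makes p19ARF from exon 1β and the CDK inhibitor p16INK4A from exon 1α, each joined to the same later exons. The ARF transcript had 8290, 10782, 8635 and 9421 reads and the INK4A transcript 4215, 4865, 4374 and 4270 reads in the order *Hmga2*+/+ Ctrl, *Hmga2*+/+ TGFB1, *Hmga2*-/- Ctrl and *Hmga2*-/- TGFB1. Reads on the shared exons count for both, so exon 1β (286 bases) had 4075, 5917, 4261 and 5151 more reads than exon 1α (207 bases). This sets the level of exon 1β alone to at least 254, 361, 263 and 316 RPKM, and the first exon of ARF was thus the better covered one in each library. Relative to the mapped reads, the difference grew 1.42-fold with TGFB1 in *Hmga2*+/+ MEF and 1.20-fold in *Hmga2*-/- MEF. The RPKM of the INK4A transcript, shared exons included, had ratios of TGFB1 to Ctrl of 1.13 in *Hmga2*+/+ and 0.971 in *Hmga2*-/- MEF.

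**Figure D2:**
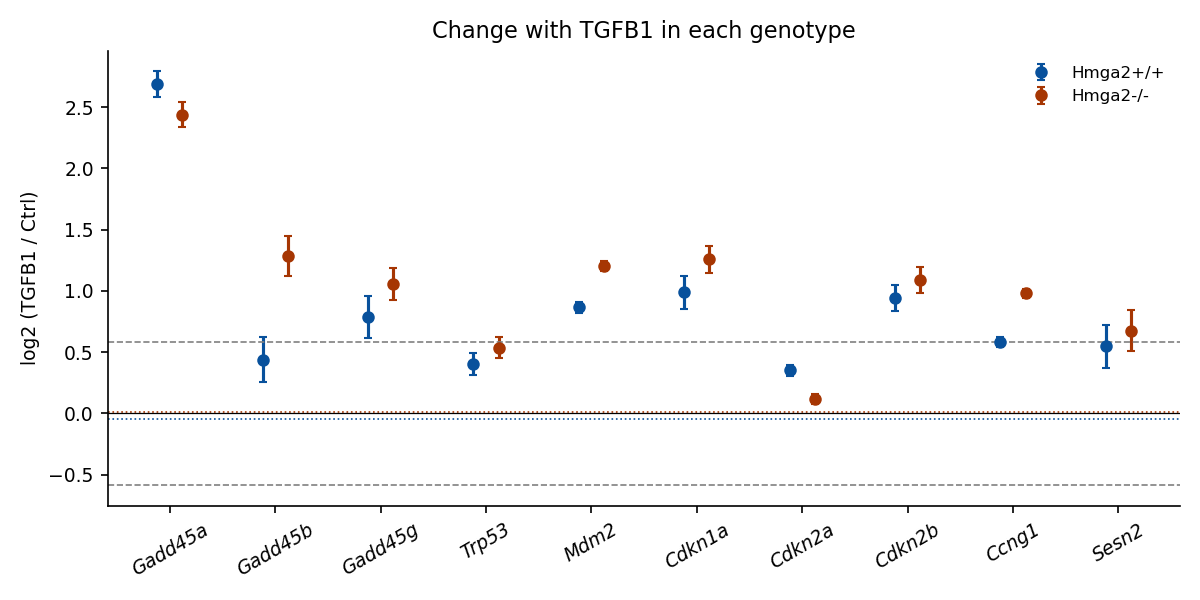
Log2 ratio of the TGFB1 to the Ctrl library for the 10 genes in *Hmga2*+/+ (blue) and *Hmga2*-/- (brown) MEF; points are ratios of 2 libraries, bars are 95% exact counting intervals, dashed lines mark 1.5-fold and dotted lines the median of all genes. All points lie above 0, *Gadd45a* is highest with 2.68 and 2.44, and *Cdkn2a* is lowest with 0.35 and 0.12.

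Between genotypes, the 10 genes were compared without and with TGFB1. In the Ctrl libraries 1 of 10 genes, *Gadd45g*, was at least 1.5-fold higher in *Hmga2*-/- than in *Hmga2*+/+ MEF, against 2.94% of all genes, and none was lower, against 2.71%. In the TGFB1 libraries 5 of 10 were higher, against 3.88% of all genes, and none was lower, against 2.75%. The 5 were *Gadd45b*, *Gadd45g*, *Mdm2*, *Cdkn1a* and *Ccng1*. The median of the 10 genes was 0.14 in the Ctrl libraries and 0.44 in the TGFB1 libraries on the log2 scale, beside -0.02 and 0.04 for all genes. The comparison under TGFB1 shares its libraries with the TGFB1 responses above, so these counts are not independent of each other.

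*Gadd45g* was 1.61-fold higher in *Hmga2*-/- MEF in the Ctrl libraries (log2 0.68, 0.51 to 0.86) and 1.94-fold higher in the TGFB1 libraries (0.95, 0.83 to 1.08). *Gadd45b* had a ratio of 0.999 in the Ctrl libraries and was 1.80-fold higher in the TGFB1 libraries (0.85, 0.70 to 0.99). *Gadd45a* had ratios of 1.15 and 0.970, so the family members did not move together between genotypes.

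The p53 targets *Mdm2*, *Cdkn1a* and *Ccng1* had ratios of 1.26, 1.38 and 1.22 in the Ctrl libraries, which did not reach 1.5-fold, with intervals above 0 on the log2 scale. With TGFB1 they were higher in *Hmga2*-/- MEF by 1.59-fold (log2 0.67, 0.64 to 0.71), 1.66-fold (0.73, 0.63 to 0.83) and 1.61-fold (0.69, 0.66 to 0.72). *Trp53* had ratios of 1.04 and 1.14, *Sesn2* of 1.06 and 1.16, *Cdkn2b* of 0.949 and 1.05, and *Cdkn2a* of 1.03 and 0.879. *Mdm2* lies 2.65 Mb from the *Hmga2* gene body on chromosome 10. Whether flanking DNA of the knockout allele played a part was not tested.

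**Figure D3:**
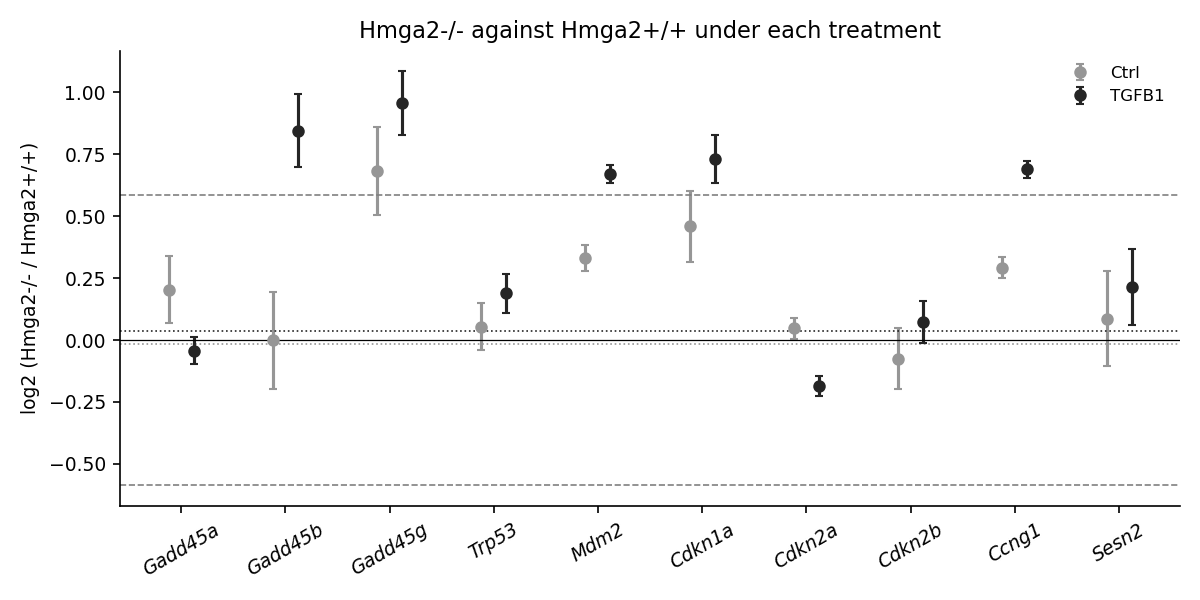
Log2 ratio of *Hmga2*-/- to *Hmga2*+/+ MEF for the 10 genes in the Ctrl (grey) and TGFB1 (black) libraries; points are ratios of 2 libraries, bars are 95% exact counting intervals, dashed lines mark 1.5-fold and dotted lines the median of all genes. *Gadd45b*, *Gadd45g*, *Mdm2*, *Cdkn1a* and *Ccng1* pass 1.5-fold with TGFB1, and *Gadd45g* alone passes in Ctrl.

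The difference of the TGFB1 response between genotypes, as the log2 change in *Hmga2*-/- MEF less that in *Hmga2*+/+ MEF, passed 1.5-fold for 1 of the 10 genes in the positive direction, against 3.33% of all genes, and for none in the negative direction, against 2.49%. That gene was *Gadd45b*, with a difference of 0.85 (counting interval 0.60 to 1.09). *Ccng1* had 0.40 (0.34 to 0.45), *Mdm2* 0.34 (0.28 to 0.40), *Cdkn1a* 0.27 (0.10 to 0.44) and *Gadd45g* 0.27 (0.06 to 0.49). *Gadd45a* and *Cdkn2a* lay on the other side of 0, with -0.25 (-0.39 to -0.10) and -0.23 (-0.29 to -0.17). The spread between cultures that these differences would have to exceed is unknown.

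A list of 34 further p53 target genes, also chosen with earlier results of these data known, was compared in the same way. Of these, 32 had at least 1 RPKM in a library. With TGFB1, 7 rose and 2 fell in *Hmga2*+/+ MEF (21.9% and 6.25%, against 12.1% and 17.6% of all genes). In *Hmga2*-/- MEF 11 rose and 2 fell (34.4% and 6.25%, against 13.7% and 15.9%). With libraries rescaled by the median ratio these counts were 8 and 2, and 9 and 2. *Pmaip1*, which encodes the apoptosis inducer NOXA, had 5.77 and 31.9 RPKM in *Hmga2*+/+ MEF and 8.37 and 64.5 RPKM in *Hmga2*-/- MEF, and rose 5.52-fold and 7.71-fold. *Plk2*, a polo-like kinase, rose 4.15-fold and 4.58-fold. *Aen*, an apoptosis nuclease, rose 2.68-fold and 2.20-fold, and *Epha2*, an ephrin receptor, rose 2.59-fold and 2.51-fold. *Sesn1* and *Ccng2*, the paralogs of *Sesn2* and *Ccng1*, were the 2 that fell. *Sesn1* went from 6.48 to 3.22 RPKM in *Hmga2*+/+ MEF and from 5.45 to 3.37 RPKM in *Hmga2*-/- MEF, and *Ccng2* from 10.5 to 5.29 RPKM and from 10.4 to 5.91 RPKM.

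Between genotypes, 5 of the 32 genes were higher in *Hmga2*-/- MEF in the Ctrl libraries and 9 in the TGFB1 libraries (7 after rescaling), and none was lower in either. The shares of 15.6% and 28.1% stand against 2.94% and 3.88% of all genes that were higher, while 2.71% and 2.75% of all genes were lower. Their median was 0.13 and 0.35 on the log2 scale, beside -0.02 and 0.04 for all genes. Of the 32 genes 30 lay above 0 under TGFB1, against 58.1% of all genes, and 24 lay above 0 under both treatments, against 32.8% of all genes. The Ctrl and the TGFB1 comparison use different libraries of the same cell populations. The difference of the TGFB1 response between genotypes passed 1.5-fold in the positive direction for 1 of the 32, *Ddit4l* (3.125%, against 3.33% of all genes). None passed in the negative direction, against 2.49% of all genes. The median difference was 0.16 on the log2 scale, beside 0.05 for all genes. *Pmaip1* was 2.02-fold higher under TGFB1, *Fas*, the death receptor gene, 1.93-fold and *Eda2r*, a receptor of the TNF receptor family, 1.81-fold. *Ddit4l*, an mTORC1 inhibitor, had 2.01 and 1.49 RPKM in *Hmga2*+/+ MEF and 2.11 and 2.63 RPKM in *Hmga2*-/- MEF, and was 1.76-fold higher under TGFB1. In the Ctrl libraries the ratios of *Eda2r*, *Fas*, *Btg2* and *Aen* were 1.62, 1.56, 1.53 and 1.53. The remaining gene of the 5 was *Plk2*, whose ratio of 1.50004 lay just past the threshold.

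**Figure D4:**
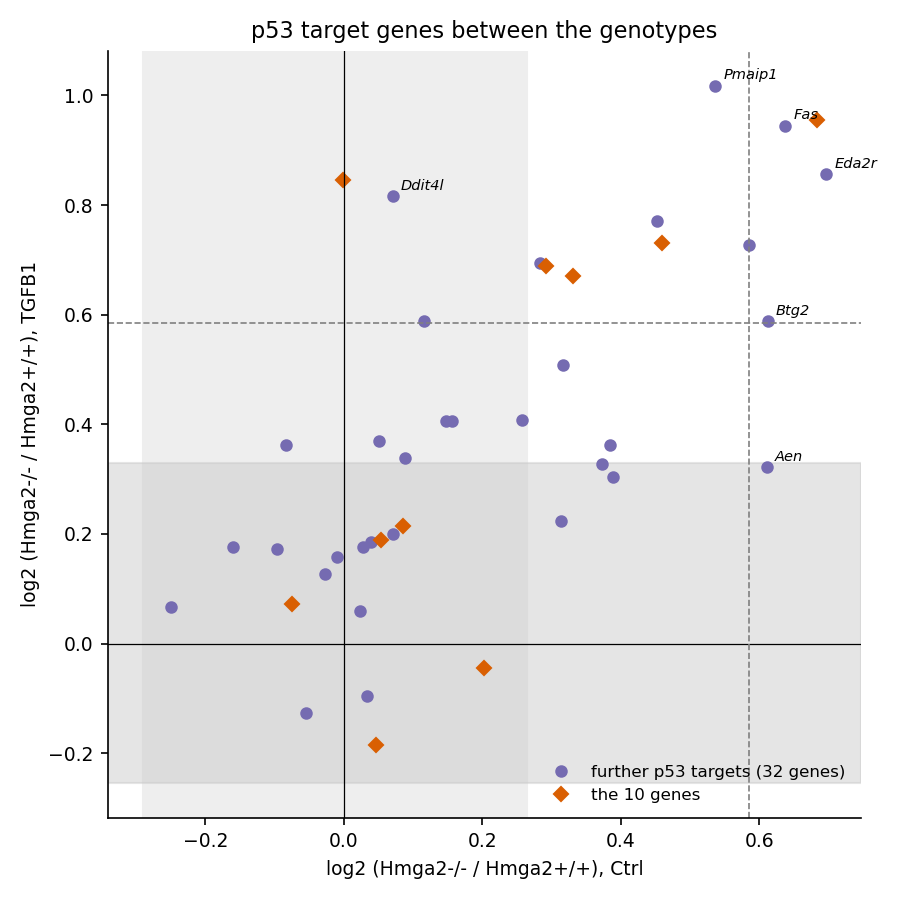
Log2 ratio of *Hmga2*-/- to *Hmga2*+/+ MEF in the Ctrl libraries (x axis) and in the TGFB1 libraries (y axis) for 32 further p53 target genes (circles) and the 10 genes (diamonds); each point is a pair of ratios of single libraries, grey bands span the 10th to 90th percentile of all genes and dashed lines mark 1.5-fold. Of the 32 circles 30 lie above 0 on the y axis, and *Pmaip1* is highest with 1.02.

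The other genes that control p53 were taken from a further list, also chosen with earlier results of these data known. Of 15 regulators and relatives, 13 had at least 1 RPKM in a library, and with TGFB1 none rose and 2 fell in *Hmga2*+/+ MEF, namely *Trp53bp1* and *Chek2*, with ratios of 0.660 and 0.664. These 15.4% were near the 17.6% of all genes that fell, while 12.1% of all genes rose. After rescaling neither passed, and 1 other gene of the list rose. *Trp53bp1*, a DNA break response gene, was the 1 that fell in *Hmga2*-/- MEF, with a ratio of 0.650 (7.69% of the list, against 15.9% of all genes). No gene of the list passed between genotypes, where 2.94% of all genes were higher and 2.71% lower in Ctrl, and 3.88% and 2.75% under TGFB1. *Mdm4*, the partner of MDM2, had 7.43, 7.89, 7.40 and 7.07 RPKM in the order *Hmga2*+/+ Ctrl, *Hmga2*+/+ TGFB1, *Hmga2*-/- Ctrl and *Hmga2*-/- TGFB1. Of 15 measured partners of the GADD45 proteins, 1 rose and 1 fell in each genotype, or 6.67% each way, below the shares of all genes in either direction. *Tdg*, the glycosylase of DNA demethylation, rose 1.63-fold and 1.56-fold, and *Map2k6*, a p38 activating kinase, fell to 0.216 and 0.315 of its Ctrl level.

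The CDK inhibitor genes split with TGFB1. *Cdkn1a* and *Cdkn2b* rose in both genotypes, *Cdkn2a* passed in neither, and the remaining 4 fell in both. *Cdkn1c*, which encodes p57, went from 27.9 to 4.45 RPKM in *Hmga2*+/+ MEF and from 20.8 to 2.94 RPKM in *Hmga2*-/- MEF, log2 changes of -2.65 and -2.83. *Cdkn1b*, which encodes p27, went from 27.7 to 15.4 RPKM and from 25.0 to 14.7 RPKM. *Cdkn2c*, which encodes p18INK4C, went from 21.9 to 11.0 RPKM and from 19.1 to 10.2 RPKM. *Cdkn2d*, which encodes p19INK4D, went from 6.54 to 3.83 RPKM and from 6.59 to 3.27 RPKM, with ratios of 0.586 and 0.496. Levels of *Cdkn1b* and *Cdkn1c* were above that of *Cdkn1a* in both Ctrl libraries, and with TGFB1 *Cdkn1a* was above *Cdkn1c* in both genotypes.

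Among the 18 genes of the list of other CDK inhibitors and the RB axis, 1 rose and 6 fell in *Hmga2*+/+ MEF and none rose and 6 fell in *Hmga2*-/- MEF. The 33.3% that fell stand against 17.6% and 15.9% of all genes, and the 5.56% that rose in *Hmga2*+/+ MEF against 12.1%. In *Hmga2*-/- MEF 13.7% of all genes rose. The 1 that rose was *Cdk6*, a kinase that p15INK4B inhibits, with 0.844 and 2.47 RPKM in *Hmga2*+/+ MEF and 1.45 and 1.89 RPKM in *Hmga2*-/- MEF. *Ccnd1*, the cyclin D1 gene, fell in both, from 10.6 to 6.89 RPKM and from 13.2 to 5.72 RPKM. Between genotypes 1 gene of the list was higher and 1 lower in Ctrl (5.56% each, against 2.94% and 2.71% of all genes). Under TGFB1 none was higher, against 3.88% of all genes, and 2 were lower (11.1%, against 2.75%). The gene higher in Ctrl was *Cdk6* with a ratio of 1.72, and under TGFB1 *Cdkn1c* was lower with a ratio of 0.659. *Ccnd2*, the cyclin D2 gene, was lower in *Hmga2*-/- MEF under both treatments, with ratios of 0.492 in Ctrl and 0.450 with TGFB1, the latter from 6.61 against 14.7 RPKM.

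**Figure D5:**
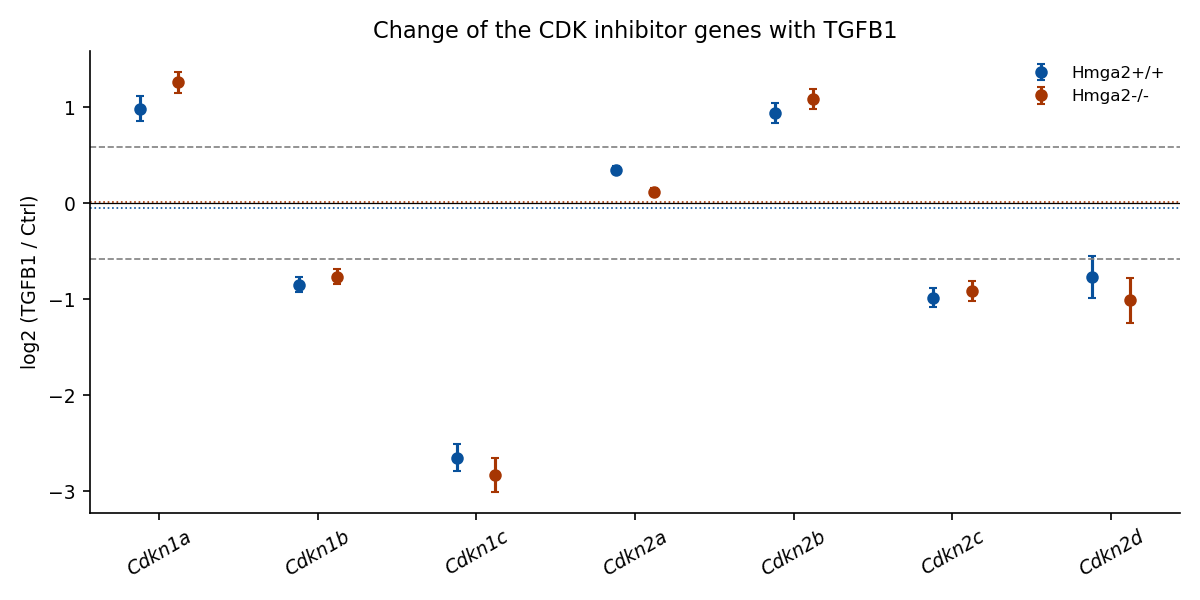
Log2 ratio of the TGFB1 to the Ctrl library for the 7 CDK inhibitor genes in *Hmga2*+/+ (blue) and *Hmga2*-/- (brown) MEF; points are ratios of 2 libraries, bars are 95% exact counting intervals, dashed lines mark 1.5-fold and dotted lines the median of all genes. *Cdkn1a* and *Cdkn2b* lie above 1.5-fold, *Cdkn1b*, *Cdkn1c*, *Cdkn2c* and *Cdkn2d* lie below it in the other direction, and *Cdkn2a* lies between.

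Genes with the most similar pattern were sought for the 7 members whose log2 RPKM spanned more than 1, by the root mean square difference of log2 RPKM centred over the 4 libraries, among 10042 genes. With 4 libraries many genes can share a pattern, so these are descriptions. *Tnc* was nearest to *Gadd45a* (0.08), *Snord111*, at 1.12 to 2.79 RPKM, to *Gadd45b* (0.05) and *Eda2r* to *Gadd45g* (0.05). *Tagln2* was nearest to *Mdm2* (0.03), *Pdlim1* to *Cdkn1a* (0.03), *Mrto4* to *Cdkn2b* (0.01) and *Ak1* to *Ccng1* (0.02). *Tagln2* and *Nedd9* were among the 3 nearest genes of both *Mdm2* and *Cdkn1a*, and *Eda2r* is itself 1 of the p53 targets listed above.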

How the data were processed

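RNA-seq of total RNA from 4 libraries (SMARTer stranded kit, 75-base single reads) was analysed, 1 for each combination of *Hmga2* genotype and treatment. The authors deposited RPKM for 63759 UCSC known transcripts of mm10. Submitters' processing notes name FastQC, Trimmomatic, HISAT2 2.1.0, SAMtools and HOMER. The header of the table names exons as the counted feature and the methods name genes; the lengths given match exons for *Cdkn1a* and *Cdkn2a*. The methods speak of duplicates of 1 experiment, and whether a column pools them is not stated.

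A symbol was given to 57708 transcripts, each from the GENCODE vM21 gene that covered at least 50% of it on its own strand. The total of mapped reads was found for each library by searching for the depth that turns RPKM into whole reads, and 100% of the values tested then lay within 0.1 of a whole read. Levels have exact Poisson intervals, ratios exact binomial intervals and differences of responses normal intervals on the log scale, at 95%. They cover counting error only, and reads without molecular identifiers are not independent molecules. A value of 0 RPKM was set to 0.001, a gene was called at 1.5-fold, and calls were read against all genes that reached 1 RPKM in any library. These settings follow the study's methods, apart from the 1 RPKM filter. With 1 library per condition no test was run.

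The members and the gene lists were chosen with earlier results of these data known. All members are named, and from each list at most the 4 largest changes per comparison, direct counterparts of members and, where 5 or fewer were called, those genes. Python 3.11.15, numpy 2.4.6, pandas 2.3.3, scipy 1.17.1 and matplotlib 3.10.9 were used. The search for depth, the 1.5-fold call and the exact interval of ratios were tested on simulated data, and the other steps were not. The result for 1 gene of a list is not reported here.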

Additional observations from a re-analysis of the deposited data

Results flagged for a closer look

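For 4 of the 10 genes the difference between genotypes had opposite signs in the Ctrl and TGFB1 libraries. With 1 library per condition, these differences of direction were not tested. *Gadd45b* went from -0.0017 to 0.85 on the log2 scale, a difference of 0.85. *Gadd45a* went from 0.20 to -0.04, a difference of -0.25. *Cdkn2a* went from 0.05 to -0.19, a difference of -0.23. *Cdkn2b* went from -0.08 to 0.07, a difference of 0.15. The counting intervals of the Ctrl value of *Gadd45b*, of both values of *Cdkn2b* and of the TGFB1 value of *Gadd45a* included 0. After median-ratio rescaling, the Ctrl value of *Gadd45b* was 0.02, so its signs were no longer opposite. Of the 8 values, only that of *Gadd45b* under TGFB1 passed 1.5-fold.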

How the results depend on the processing

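No paired analysis was possible because there was 1 library per condition, and for the same reason no replicate could be left out. Of 30 counts of called members under alternative settings, 26 stayed within 1.5 times the reported count. The other 4 came from a 2-fold threshold, under which 1 gene (*Gadd45a*) was called for the TGFB1 response in *Hmga2*+/+ MEF in place of 5, and 0 in place of 1, 5 and 1 for the genotype difference in Ctrl, the genotype difference under TGFB1 and the difference of the responses. In *Hmga2*-/- MEF 6 of 8 genes passed 2-fold. Pseudocounts of 1 and 0.1, libraries rescaled by the median ratio, the transcript with the highest mean RPKM and the mean over transcripts weighted by length reversed none of the called changes in 250 recomputed values, 248 of them lay inside the reported counting interval, and the largest shift was 0.14 on the log2 scale. With a pseudocount of 1, *Sesn2* was no longer called in *Hmga2*-/- MEF, which left 7 genes. Rescaling shifted the median of all genes by at most 0.05. Without the filter of 1 RPKM the share of all genes called between genotypes was higher: 8.37% higher and 8.78% lower in Ctrl, and 9.35% and 8.22% under TGFB1. Each member had at least 423 reads in each library, and the counting intervals of the called changes lay above 0 on the log2 scale. Those of *Gadd45g* between genotypes in Ctrl (0.51 to 0.86) and of *Sesn2* with TGFB1 in *Hmga2*-/- MEF (0.51 to 0.84) spanned the threshold of 0.58. The spread between cultures could not be measured.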

Other observations

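A list of 11 genes on the SMAD route to *Cdkn2b* and *Cdkn1a* was measured in each library. With TGFB1, 4 of them rose in *Hmga2*+/+ MEF and 4 in *Hmga2*-/- MEF, against 12.1% and 13.7% of all genes. *Smad7*, the inhibitory SMAD that TGFB1 induces, had 6.40 and 10.6 RPKM in *Hmga2*+/+ MEF and 6.67 and 14.6 RPKM in *Hmga2*-/- MEF, and *Skil*, a repressor of SMAD activity, rose 4.75-fold and 5.89-fold. *Myc*, which is known as a repressor of *Cdkn2b* and *Cdkn1a*, rose 3.73-fold and 3.56-fold in the same libraries in which both of those genes rose. *Foxo1*, a partner of SMAD proteins at *Cdkn1a*, rose 2.03-fold and 2.36-fold.

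A list of 11 stress response genes held factors known to act upstream of *Sesn2* and the GADD45 genes, and also genes downstream of ATF4, such as *Asns*, *Trib3* and *Chac1*. With TGFB1, 7 of the 11 rose and none fell in each genotype. Of all genes, 12.1% rose and 17.6% fell in *Hmga2*+/+ MEF, and 13.7% rose and 15.9% fell in *Hmga2*-/- MEF. None of the 11 passed 1.5-fold between genotypes, where 2.94% of all genes were higher and 2.71% lower in Ctrl. Under TGFB1 the shares were 3.88% and 2.75%, so a count of 0 among 11 genes is near the shares of all genes. Both kinds of gene count among the 7. *Atf4*, the main factor of the integrated stress response, had 60.5 and 125 RPKM in *Hmga2*+/+ MEF and 58.7 and 131 RPKM in *Hmga2*-/- MEF. Its targets *Asns*, the asparagine synthetase gene, and *Trib3*, a pseudokinase gene, rose 4.25-fold and 2.94-fold in *Hmga2*+/+ MEF and 4.60-fold and 3.38-fold in *Hmga2*-/- MEF. *Chac1*, a glutathione-degrading enzyme gene, rose 2.45-fold and 2.73-fold. Between genotypes the list had a median of -0.01 in Ctrl and 0.11 under TGFB1 on the log2 scale, beside -0.02 and 0.04 for all genes, while the 32 further p53 targets had 0.13 and 0.35. The 2 lists were not tested against each other.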
